A study of Mus musculus with 12 samples.

Results

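Kidneys taken 72 h after cisplatin were compared with kidneys of vehicle mice over all measured genes, with attention to the genes and gene groups outside the usual tubular injury, p53 and transporter lists. The comparison used the 4 libraries labelled Vehicle and the 4 labelled Cisplatin, 8 of the 12 in the series, chosen by their treatment label alone. All mice were C57BL/6, a common inbred strain, and each library came from whole frozen kidney tissue. Vehicle mice received saline and cisplatin mice 25 mg/kg cisplatin, both into the peritoneum. The 4 kidneys of the remaining group, given cisplatin with the compound 84-B10, were not used in the main comparison. The sources disagree on the cisplatin group: the design text reserves the 48 h of 84-B10 given beforehand for the combination group, whereas the treatment protocol lists both groups, so that exposure of the cisplatin mice to 84-B10 cannot be settled here. Sex and age are not stated in the labels used here.

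Cisplatin is a platinum drug that crosslinks DNA and is used against solid tumours. The kidney clears it, and the proximal tubule, the segment that reabsorbs most of the filtrate, takes it up and is the main site of its kidney toxicity. Surviving tubule cells are known to lose the enzymes and carriers of the mature segment, to flatten, and to express genes of wounded and regenerating epithelia.

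Estimated counts came to between 15760841 and 16517342 per vehicle library and to 17738210 and 18146857 in cisplatin libraries 3 and 4, while the totals of cisplatin libraries 1 and 2 were not analysed here. Values are FPKM, fragments per kilobase of transcript scaled to sequencing depth, and fold changes are differences of log2(FPKM + 1) with their standard error, which understate the change of low genes. Between 11516 and 11557 genes reached 1 FPKM in vehicle libraries and between 12156 and 12221 after cisplatin. The 10 most abundant genes took 22.33 to 22.99% of the FPKM in vehicle and 14.03 to 15.11% after cisplatin. Summed FPKM of 12 proximal tubule markers ran from 16040 to 16660 in vehicle and from 3980 to 5848 after cisplatin, so the tissue label was borne out in both groups. In whole kidney RNA, fewer cells of a type and less RNA per cell cannot be told apart. Cisplatin library 1 lay nearest to vehicle of the 4: it was the closest for 64.1% of the genes raised at least 2-fold and for 79.4% of those lowered at least 2-fold.

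Most of the kidney transcriptome moved. Of 12165 genes tested, 9354 (76.9%) passed limma's test, with a Benjamini-Hochberg adjusted p below 0.05, 6694 (55%) upward and 2660 (21.9%) downward. At least 2-fold rises were found in 1465 genes (12%) and at least 2-fold falls in 602 (4.95%), and the 2 groups did not overlap in 8717 genes (71.7%). The median of all tested genes stood at 0.25 on the deposited scale. Median-of-ratios scaling, which sets the typical gene to no change, took that shift away and divided the passing genes into 4368 upward (35.9%) and 4465 downward (36.7%). Upward calls then made up 49.5% of the passing genes instead of 71.6%, so small rises are read below against this shift. The injury and p53 lists held 110 of the 1465 raised genes and 6 of the 602 lowered genes. The 43 programme lists described here held 276 of the raised and 76 of the lowered genes.

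The genes that rose furthest outside the injury, p53, keratin and transport classes coded for squamous epithelial proteins, metal-binding proteins, secreted inhibitors and signalling scaffolds. Mt2, a metallothionein that binds zinc, copper and other heavy metals, was at 63.6, 68.1, 62.2 and 61.6 FPKM in vehicle libraries 1 to 4 and at 1691, 2890.2, 3706 and 3324 FPKM in cisplatin libraries 1 to 4. Its partner Mt1 was at 184, 234, 179 and 210.2 FPKM in vehicle libraries 1 to 4 and at 2561, 4167, 5159 and 4449 FPKM in cisplatin libraries 1 to 4. Both were higher in every cisplatin library, and library 1 was the lowest of the 4; the log2 fold changes were 5.43 ± 0.20 for Mt2 and 4.29 ± 0.19 for Mt1 (limma adjusted p = 3.42e-09 and 1.3e-08). Akap12, a scaffold that anchors protein kinases A and C, stood at 1.19, 1.49, 1.47 and 1.16 FPKM in vehicle libraries 1 to 4 and at 83.5, 114, 84.8 and 99.04 FPKM in cisplatin libraries 1 to 4. It rose by 5.36 ± 0.10 on the log2 scale (limma adjusted p = 5.23e-11). Arg2, the mitochondrial arginase, rose by 5.19 ± 0.12, from 0.79 ± 0.315 to 63.8 ± 7.98 FPKM (mean ± SD, n = 4 libraries).

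Gprc5a, an orphan receptor induced by retinoic acid, was measured at 0.50, 0.52, 0.52 and 0.57 FPKM in vehicle libraries 1 to 4 and at 41.8, 53.9, 55.5 and 56.3 FPKM in cisplatin libraries 1 to 4. The groups were far apart and the log2 fold change was 5.10 ± 0.09 (limma adjusted p = 3.24e-11). Being under 1 FPKM in all vehicle libraries, Gprc5a could enter the test only through its cisplatin values. Csf1, the growth factor of macrophages, rose from 1.68 ± 0.394 to 49.5 ± 7.4 FPKM, and Hmga1, an architectural chromatin protein of dividing and embryonic cells, from 16.6 ± 0.464 to 331 ± 41.6 FPKM. Enzymes of lipid and ester handling followed: Ces2e, a carboxylesterase, rose from 6.02 ± 0.435 to 159 ± 8.24 FPKM, and Cyp4a14, a fatty acid hydroxylase, from 14.2 ± 2.41 to 296 ± 55.1 FPKM. Lrg1, a secreted acute-phase glycoprotein, rose from 3.58 ± 0.25 to 119 ± 26.4 FPKM. Of 9 tested liver markers, 4 rose and 5 fell; all 12 summed to between 1935 and 2123 FPKM in vehicle and between 219.8 and 438.4 after cisplatin, and most of the vehicle sum came from Cyp2e1, which the kidney also makes. Serpina1a, which codes for an alpha-1 antitrypsin, was at 1.84, 5.20, 11.9 and 10.04 FPKM in vehicle libraries 1 to 4 and at 63.8, 53.9, 71.4 and 53.2 FPKM in cisplatin libraries 1 to 4. Apoa1, Apob and Fabp1 also rose, whereas Alb, albumin, fell from 6.16 ± 1.58 to 1.97 ± 0.352 FPKM and Ttr, transthyretin, from 130.2 ± 43.9 to 31.3 ± 10.1 FPKM. The part of liver markers in the rise of Lrg1 was not tested.

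**Figure D1:**
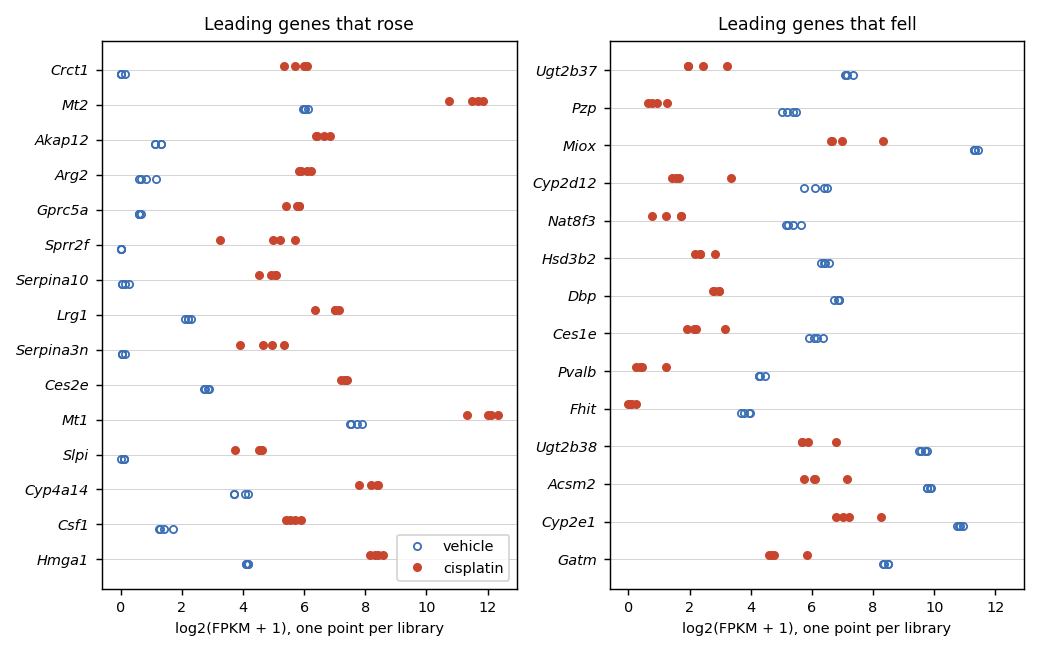
Levels of leading genes that rose (left) and fell (right), as log2(FPKM + 1) on the x axis, with one open point per vehicle library and one filled point per cisplatin library. The groups do not overlap for any gene shown, and the rightmost cisplatin point of many falling genes, such as Miox and Cyp2d12, is library 1.

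Leading falls included enzymes of the mature proximal tubule. Ugt2b37, a glucuronosyltransferase that conjugates steroids and drugs, stood at 141, 160.3, 135 and 137 FPKM in vehicle libraries 1 to 4 and at 8.44, 2.89, 4.40 and 2.85 FPKM in cisplatin libraries 1 to 4. Ugt2b38 of the same family stood at 876, 753, 837 and 727 FPKM in vehicle libraries 1 to 4 and at 110.4, 50.7, 49.6 and 57.5 FPKM in cisplatin libraries 1 to 4. They fell by 4.78 ± 0.24 and 3.63 ± 0.22 on the log2 scale; these paralogues are close in sequence, so the split of reads between them is uncertain. Miox, which opens the ring of myo-inositol and is a proximal tubule enzyme, was at 2535, 2740.5, 2532 and 2598 FPKM in vehicle libraries 1 to 4 and at 322, 97.3, 125 and 101 FPKM in cisplatin libraries 1 to 4. Library 1 kept the highest Miox of the cisplatin group, and the log2 fold change was -4.20 ± 0.31 (limma adjusted p = 5.87e-07). Gatm, which makes the precursor of creatine, went from 340.0 ± 18.8 to 32.5 ± 15.5 FPKM, and Gamt, the next enzyme of creatine synthesis, from 27.1 ± 1.63 to 8.74 ± 2.21 FPKM.

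Cyp2e1, a cytochrome P450 of small solvents, went from 1832 ± 112 to 172 ± 90.2 FPKM, and Acsm2, a medium-chain acyl-CoA synthetase, from 907 ± 38.7 to 81.9 ± 39.5 FPKM. Hsd3b2, a steroid dehydrogenase with close paralogues, went from 85.04 ± 6.32 to 4.45 ± 1.16 FPKM and Pzp, a secreted protease trap, from 37.8 ± 5.48 to 0.90 ± 0.371 FPKM. Outside the proximal tubule, Pvalb, a calcium buffer of the distal convoluted tubule, was at 20.9, 18.09, 18.4 and 18.8 FPKM in vehicle libraries 1 to 4 and at 1.32, 0.31, 0.18 and 0.36 FPKM in cisplatin libraries 1 to 4. Dbp, a transcription factor of the circadian output, was at 118, 117, 105 and 116 FPKM in vehicle libraries 1 to 4 and at 5.97, 5.81, 6.83 and 6.75 FPKM in cisplatin libraries 1 to 4. Its 4 cisplatin libraries lay close together and it fell by 3.97 ± 0.06 (limma adjusted p = 1.87e-11). The hour of day at which each kidney was taken is not given in the sources used here, and its part in the Dbp value was not tested.

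The most abundant transcripts changed places. Kap, an androgen-regulated kidney protein, led vehicle kidneys at 61237, 65991, 69267 and 63855 FPKM and stood at 11329, 7801, 9491 and 12789 FPKM in cisplatin kidneys. Gpx3, the plasma glutathione peroxidase made by the kidney, was at 31678, 33203, 29503 and 33171 FPKM in vehicle and became the most abundant transcript after cisplatin at 26009, 24152, 25921 and 27018 FPKM. The groups did not overlap, but Gpx3 did not pass, at -0.31 ± 0.15 on the log2 scale. Its direction depended on the scaling: it passed as a fall at -0.60 with median-of-ratios scaling and stood at 1.11 with quantile normalization. The latter sets values by rank within a library, and Gpx3 was the top gene only in cisplatin libraries, Kap being so in vehicle. Its 1.11 is thus a change of rank and not of FPKM. Fth1, the ferritin heavy chain, rose from 4360.0 ± 226 to 8811 ± 555 FPKM, whereas Ftl1, the light chain, stood at 3606 ± 163 and 3221 ± 246 FPKM and did not pass on the deposited scale but passed as a fall of -0.46 with median-of-ratios scaling. The steadiest abundant genes on the deposited scale were Car2 (carbonic anhydrase 2), Hsd17b4, Entpd5, Rsrp1 and Ndufa13, all within 0.01 of no change; with median-of-ratios scaling they lie between -0.30 and -0.29.

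Genes of stratified squamous epithelium, which the kidney does not normally make, appeared after cisplatin. Many sit in the epidermal differentiation complex, a gene cluster whose small proline-rich (Sprr) and late cornified envelope (Lce) proteins are crosslinked into the surface of skin cells. The Sprr genes are also known as wound and stress genes of other epithelia. The table holds 51 genes between S100a9 and S100a11 on chromosome 3. In 37 of them all 4 vehicle libraries were listed at 0 FPKM, and in 29 every cisplatin library lay above every vehicle library. Over all tested genes, the groups did not overlap in 71.7%, counting both directions. Of the 14 that entered the test, 13 rose, against 55% of all tested genes, but most could enter only through their cisplatin values. The 13 Sprr genes summed to between 0.08 and 0.64 FPKM in vehicle and between 405.0 and 556.3 FPKM after cisplatin, and the 21 Lce genes to 0 and to between 22.4 and 38.8 FPKM.

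Sprr1a carried most of that sum, at 0.60, 0.08, 0.25 and 0.16 FPKM in vehicle libraries 1 to 4 and at 383, 476, 501 and 501 FPKM in cisplatin libraries 1 to 4. Sprr1b was listed at 0 in all vehicle libraries and at 3.93, 4.36, 4.31 and 4.72 FPKM in cisplatin libraries 1 to 4. Sprr2f was listed at 0 in vehicle and at 8.52, 51.3, 36.2 and 30.5 FPKM after cisplatin. Library 1 held the lowest value of each of these genes, by the widest margin for Sprr2f. Crct1, a cysteine-rich gene at the far side of the Lce genes, was at 0, 0, 0 and 0.09 FPKM in vehicle libraries 1 to 4 and at 39.1, 50.8, 67.1 and 63.3 FPKM in cisplatin libraries 1 to 4. Its log2 fold change was 5.75 ± 0.14 (limma adjusted p = 2.33e-10), and it could enter the test only through its cisplatin values. Among Lce genes, Lce1d was listed at 0 in vehicle and at 7.38, 11.6, 8.54 and 10.6 FPKM after cisplatin. Lce3c was also listed at 0, then at 5.47, 9.19, 8.82 and 9.10 FPKM. The cluster did not move as one block: Smcp, a sperm mitochondrial protein encoded inside it, fell from 6.33 ± 1.58 to 1.34 ± 0.26 FPKM, and the late epidermal genes Flg, Flg2 and Hrnr stayed under 0.1 FPKM in all 8 libraries. Sprr2 genes are near-copies of each other, and their separate values are uncertain.

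**Figure D2:**
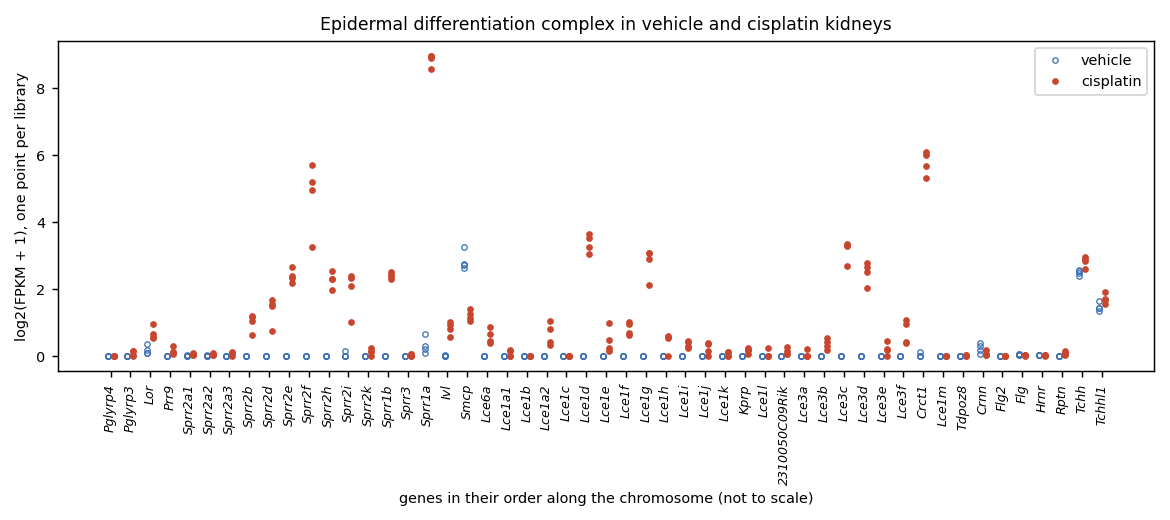
Levels of the 51 genes of the epidermal differentiation complex as log2(FPKM + 1) on the y axis, in chromosomal order on the x axis, one open point per vehicle library and one filled point per cisplatin library. Sprr1a, Crct1, Sprr2f and 4 Lce genes stand above vehicle values at or near 0, while Smcp is lower after cisplatin.

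The promoters of 4 Sprr genes are shown because they hold a motif of AP-1, for which they were chosen, the dimer of Jun and Fos proteins. Each runs from 250 bases before the start to 50 after it, from RefSeq on GRCm38.p6, written on the gene's strand, with every match to TGANTCA on either strand in capitals.
Sprr1a (chr3:92485832-92486131, minus strand): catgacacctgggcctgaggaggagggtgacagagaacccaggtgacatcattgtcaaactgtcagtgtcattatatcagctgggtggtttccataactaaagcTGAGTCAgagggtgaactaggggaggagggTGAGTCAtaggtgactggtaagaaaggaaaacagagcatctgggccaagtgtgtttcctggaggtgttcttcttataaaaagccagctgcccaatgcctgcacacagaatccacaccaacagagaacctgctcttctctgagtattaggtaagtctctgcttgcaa
Sprr1b (chr3:92438730-92439029, minus strand): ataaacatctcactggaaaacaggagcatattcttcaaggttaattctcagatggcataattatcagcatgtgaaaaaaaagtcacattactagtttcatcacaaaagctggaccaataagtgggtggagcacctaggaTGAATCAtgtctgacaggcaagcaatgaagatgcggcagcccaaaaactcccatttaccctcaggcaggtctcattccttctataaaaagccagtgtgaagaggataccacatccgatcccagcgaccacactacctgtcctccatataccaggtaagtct
Sprr2e (chr3:92351893-92352192, plus strand): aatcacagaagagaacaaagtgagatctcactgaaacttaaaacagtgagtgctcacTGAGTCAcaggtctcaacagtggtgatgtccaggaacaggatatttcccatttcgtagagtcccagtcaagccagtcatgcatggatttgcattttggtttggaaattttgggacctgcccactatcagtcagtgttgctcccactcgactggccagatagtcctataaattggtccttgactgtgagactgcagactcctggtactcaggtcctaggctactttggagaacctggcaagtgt
Sprr2f (chr3:92364937-92365236, plus strand): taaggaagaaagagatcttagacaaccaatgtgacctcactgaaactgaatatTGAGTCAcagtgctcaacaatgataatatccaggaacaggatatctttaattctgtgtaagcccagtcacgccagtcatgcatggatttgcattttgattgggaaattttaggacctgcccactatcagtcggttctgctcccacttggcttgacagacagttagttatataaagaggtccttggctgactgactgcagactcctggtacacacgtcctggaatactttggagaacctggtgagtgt
The matches begin 146 and 116 bases before the start of Sprr1a, 111 before Sprr1b, 193 before Sprr2e and 197 before Sprr2f. The motif was found in 7.81% of all promoters in the RefSeq table, 5.28% of promoters of tested genes, 10.3% of those of genes raised at least 2-fold and 4.41% of those lowered at least 2-fold. Of 8 appearing genes of the complex with a promoter in that table, 4 held the motif, namely Sprr1b, Sprr2e, Sprr2f and Sprr2h, and Lce1d, Lce1g, Lce3c and Lce3d did not. It was also found before genes that fell, Ugt2b37 and Ugt2b38. A match is a description of letters and not a binding site. Of the AP-1 genes, Fosl1 was at 0, 0.04, 0 and 0.04 FPKM in vehicle and 58.8, 61.3, 59.2 and 63.5 FPKM after cisplatin. It had the largest log2 fold change of the genes that appeared, 5.92 ± 0.05 (limma adjusted p = 4.63e-13). Like all of these, Fosl1 could enter the test only through its cisplatin values. Fosl2 rose from 2.07 ± 0.362 to 12.96 ± 0.978 FPKM and Junb from 10.7 ± 4.56 to 74.8 ± 7.07 FPKM.

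Markers of other epithelia were read beside the Sprr and Lce genes. The 13 urothelium markers summed to between 0.44 and 1.12 FPKM in vehicle and between 7.40 and 10.2 FPKM after cisplatin. Of 2 tested, Psca and Krt5, both rose, and they made up most of the later sum. Both could enter the test only through their cisplatin values and had to be higher there. Upk1a, a uroplakin, was at 0.66, 0.40, 0.54 and 0.29 FPKM in vehicle libraries 1 to 4 and at 1.23, 1.02, 1.25 and 0.88 FPKM in cisplatin libraries 1 to 4, with no overlap. Foxa1, a transcription factor of urothelium, was listed at 0 in vehicle and at 0.57, 0.57, 0.40 and 0.56 FPKM after cisplatin, and Upk3b reached 0.51 FPKM in cisplatin library 3. The uroplakins Upk2 and Upk3a, which define the urothelial surface, stayed under 0.3 FPKM in every library. Keratinocyte markers summed to between 3.25 and 3.80 and between 7.86 and 10.3 FPKM, and 2 of 3 tested rose. These 2, Krt5 and Calml3, could also enter only through their cisplatin values, and Krt5 is in both marker lists. Krt5, a basal keratin, was listed at 0 in vehicle and at 1.72, 2.58, 2.17 and 2.30 FPKM after cisplatin, and Calml3, a calmodulin of squamous epithelium, was at 0.23, 0.18, 0.27 and 0.18 FPKM in vehicle libraries 1 to 4 and at 3.74, 2.97, 4.54 and 2.68 FPKM in cisplatin libraries 1 to 4. Lor, loricrin of the cornified envelope, was at 0.07, 0.29, 0.14 and 0.07 FPKM in vehicle libraries 1 to 4 and at 0.46, 0.58, 0.95 and 0.48 FPKM in cisplatin libraries 1 to 4, again with no overlap. Krt1 and Krt14 were at or under 0.05 FPKM in all 8 libraries and Krt10 fell from 3.01 ± 0.217 to 2.03 ± 0.285 FPKM. The part of urothelium and keratinocytes in the Sprr and Lce genes was not tested. In the wider list of squamous genes, 59 were listed and 20 tested, 12 of them able to enter only through cisplatin. Of the 20, 19 rose, 17 at least 2-fold, against 55% and 12% of all tested genes.

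Across the transcriptome, 69 genes were under 0.1 FPKM in all vehicle libraries and at least 1 FPKM in all cisplatin libraries, and 2 did the opposite. Besides Fosl1, Crct1 and Sprr2f, the highest of the 69 included Slpi, a secreted elastase inhibitor, at 0, 0.08, 0.08 and 0.07 FPKM and then 12.4, 22.2, 22.4 and 23.6 FPKM. The predicted gene 1700001F09Rik was listed at 0 in vehicle and at 26.6, 31.6, 37.7 and 26.5 FPKM after cisplatin. Both had no value in vehicle near their cisplatin range. Erich6b went the other way, from 1.62, 2.89, 2.96 and 1.92 to 0, 0, 0 and 0.07 FPKM.

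Long genes fell more often than short ones. The span of each gene from start to end, introns included, was taken from RefSeq on GRCm38.p6, and was available for 12141 tested genes (99.8%). The median log2 fold change was 0.30 for genes of up to 10 kb, 0.25 for genes over 20 to 50 kb, 0.18 over 100 to 200 kb, -0.02 over 200 to 400 kb and -0.43 over 400 kb. Of 120 genes over 400 kb, 81 fell and 17 rose, and 29 (24.2%) fell at least 2-fold, against 4.95% of all genes. With median-of-ratios scaling the order of the classes was the same. In single libraries the median of these 120 genes was -0.28, -0.43, -0.50 and -0.48 in cisplatin libraries 1 to 4 and between -0.04 and 0.04 in vehicle libraries, each against the vehicle mean. Genes over 20 to 50 kb were at 0.23 to 0.29 in the same cisplatin libraries. Within genes under 5 FPKM the class over 400 kb had a median of -0.35 (n = 69), and at 5 to 20 FPKM -0.52 (n = 42). The pattern was noticed after the values were seen and was given no test.

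Fhit, a fragile-site gene whose span is 1612 kb, was at 12.9, 11.8, 14.7 and 14.4 FPKM in vehicle libraries 1 to 4 and at 0.18, 0.07, 0 and 0.07 FPKM in cisplatin libraries 1 to 4. It fell by 3.74 ± 0.09 on the log2 scale (limma adjusted p = 1.35e-10), and the 4 cisplatin values were near 0. Wwox, another gene of a common fragile site, was at 7.53, 7.53, 6.13 and 7.35 FPKM in vehicle libraries 1 to 4 and at 0.88, 0.79, 0.87 and 0.89 FPKM in cisplatin libraries 1 to 4. These fragile-site genes had no overlap between groups, as was so for 71.7% of all tested genes. Immp2l, a subunit of the mitochondrial inner membrane peptidase, was at 5.49, 5.71, 5.24 and 5.90 FPKM in vehicle libraries 1 to 4 and at 0.10, 0.15, 0 and 0.10 FPKM in cisplatin libraries 1 to 4. Macrod2, which removes ADP-ribose from proteins, went from 41.9 ± 2.28 to 8.69 ± 2.47 FPKM, and Lrmda from 6.91 ± 0.633 to 0.48 ± 0.0704 FPKM. Dpyd, the first enzyme of pyrimidine breakdown, went from 19.7 ± 1.25 to 1.34 ± 0.404 FPKM, and Sugct, a mitochondrial glutarate CoA-transferase, from 75.4 ± 4.8 to 10.8 ± 1.39 FPKM. Others of the class with other roles were Cpq, a secreted carboxypeptidase (49.2 ± 0.763 to 5.13 ± 0.303 FPKM), Tln2, which links integrins to actin (29.4 ± 3.71 to 3.25 ± 0.638 FPKM), Syn3 (6.38 ± 0.52 to 0.51 ± 0.0903 FPKM), Bbs9 of the cilium (4.31 ± 0.359 to 0.56 ± 0.13 FPKM) and Pcca, a subunit of propionyl-CoA carboxylase (67.8 ± 3.09 to 17.6 ± 3.04 FPKM).

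Some long genes rose. Dmd, the longest tested gene at 2390.4 kb, rose by 0.22 ± 0.08 on the deposited scale, less than the all-gene median of 0.25. Nrg1, a growth factor of the ErbB receptors whose span is 1084.2 kb, was at 1.91, 1.83, 3.34 and 2.80 FPKM in vehicle libraries 1 to 4 and at 18.9, 20.2, 20.1 and 18.06 FPKM in cisplatin libraries 1 to 4. It rose by 2.57 ± 0.13 (limma adjusted p = 3.06e-08). Mast4, a kinase gene of 602.6 kb, rose from 1.78 ± 0.0655 to 6.03 ± 0.326 FPKM and Exoc4, a subunit of the exocyst, from 9.46 ± 1.06 to 20.7 ± 1.31 FPKM. Of the 15 tested genes over 1000 kb, 8 fell, 3 rose and 4 did not pass. Proximal tubule marker sums fell to between 3980 and 5848 FPKM in the same libraries, and how far the fall of long genes lies in that segment was not tested.

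**Figure D3:**
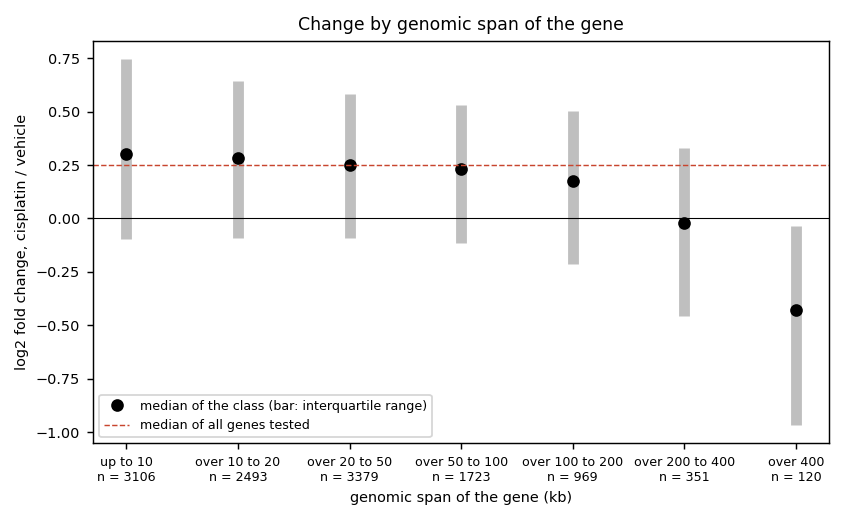
Median log2 fold change (points) and the interquartile range (bars) on the y axis, for 7 classes of genomic span on the x axis with the number of genes in each. Medians run from 0.30 in genes of up to 10 kb to -0.43 in genes over 400 kb, with the median of all genes as a dashed line at 0.25.

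A block of Y-linked genes appeared after cisplatin. Rbmy codes for an RNA-binding protein of male germ cells, and 7 near-copies of it neighbour it on the Y chromosome. The 8 genes summed to 0.08, 0.08, 0.15 and 0.07 FPKM in vehicle libraries 1 to 4 and to 85.7, 57.4, 77.6 and 74.2 FPKM in cisplatin libraries 1 to 4. Gm21704 stood at 43.1, 16.9, 26.4 and 12.4 FPKM after cisplatin, and Rbmy itself at 7.93, 10.2, 15.3 and 2.49 FPKM. The copies divided the sum differently in each library, Gm21677 running from 0.01 to 28.8 FPKM, and Gm10256 and Gm10352 had identical values, so only the sum is read. Eif2s3y, a translation factor of the Y chromosome, was at 29.7, 30.2, 32.5 and 33.5 FPKM in vehicle and 38.2, 38.5, 43.2 and 41.2 FPKM after cisplatin, a log2 fold change of 0.35 ± 0.06 that shrank to 0.06, short of the threshold, under median-of-ratios scaling. Ddx3y, an RNA helicase, was at 9.89, 8.96, 9.56 and 10.1 and 11.3, 10.9, 10.2 and 9.64 FPKM and did not pass on the deposited scale; with median-of-ratios scaling it passed as a fall, at -0.15. Gm52481, a Y-linked predicted gene outside the block, was at 0.61, 0.76, 0.31 and 0.86 FPKM in vehicle libraries 1 to 4 and at 2.85, 6.23, 8.73 and 5.84 FPKM in cisplatin libraries 1 to 4. Its log2 fold change was 2.02 ± 0.24 (limma adjusted p = 1.81e-05) and the groups did not overlap. Being under 1 FPKM in all vehicle libraries, it could enter the test only through its cisplatin values and had to be higher there. Of 51 Y genes in the table, 38 were at or under 0.1 FPKM in all 8 libraries. Testis and germ cell markers summed to between 6.36 and 9.73 FPKM in vehicle and between 7.19 and 8.09 FPKM after cisplatin, most of it from Sycp3.

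The gene lists were then read as groups, by counts and medians beside those of all tested genes. Of 42 lists with at least 5 tested genes, 37 had a median above 0 and 25 a median above that of all genes. Median-of-ratios scaling turned 11 list medians from above to below 0: Wnt, Notch, FGF, homeobox, imprinted, phosphodiesterase, NAD, nucleotide, glycosylation, vesicle coat and ER translocation genes. Counts are to be read against the 55% of all tested genes that rose and the 21.9% that fell. Counts of rises and falls of at least 2-fold are to be read against 12% and 4.95%. A list near all of these shares is no result about its genes. A gene at under 1 FPKM in all vehicle libraries could enter the test only through cisplatin and had to be higher there; where no number is given below, 4 or fewer genes of a list did so.

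**Figure D4:**
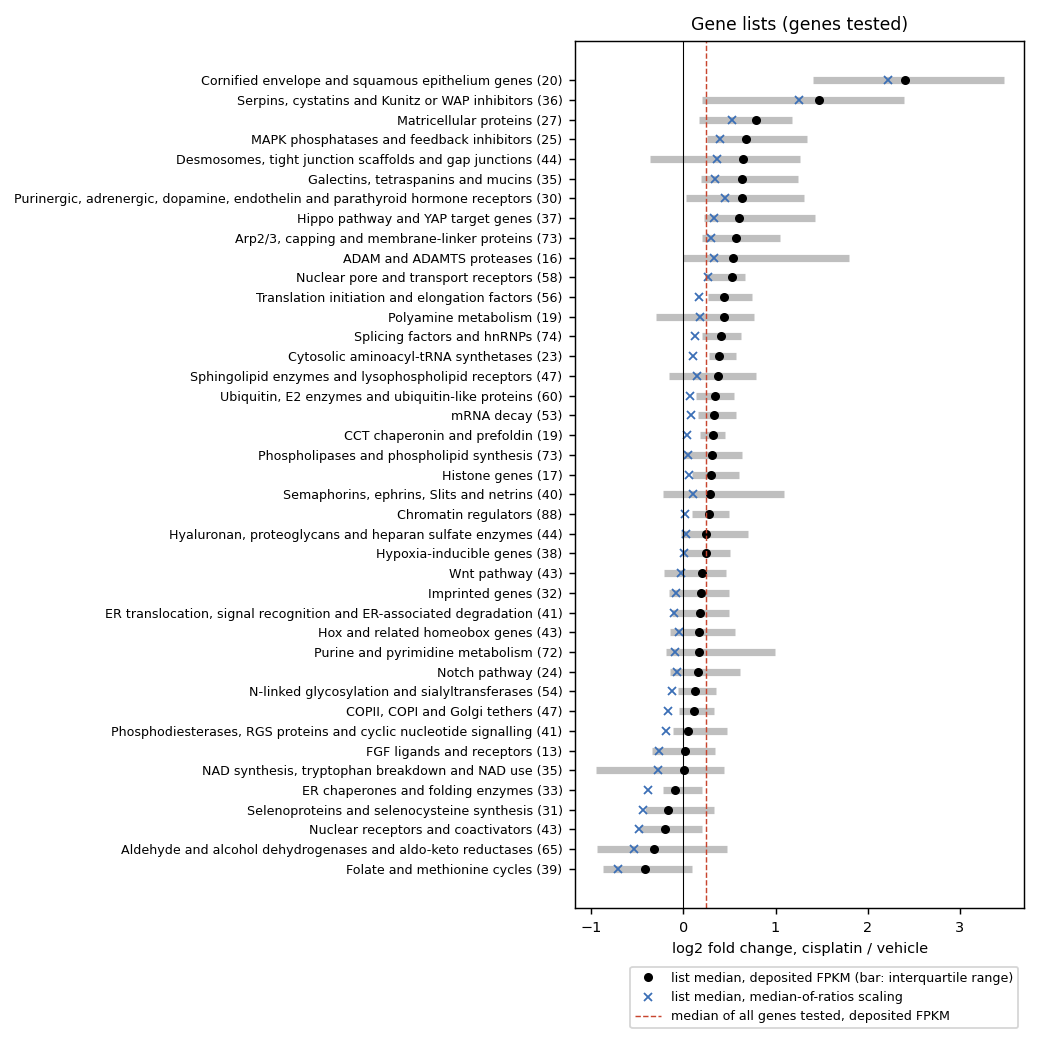
Median log2 fold change of gene lists (points, deposited FPKM; crosses, median-of-ratios scaling) and its interquartile range (bars) on the x axis, with the number of genes tested beside each name. Squamous genes and protease inhibitors lie highest, folate and methionine genes lowest, and the dashed line at 0.25 is the median of all genes.

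Most secreted protease inhibitors that were tested rose. Of 72 listed, 36 were tested, 7 of them able to enter only through cisplatin; 27 rose, 22 at least 2-fold, and 5 fell, with a median of 1.47 (1.26 with median-of-ratios scaling). Serpina10, an inhibitor of clotting factor Xa, was at 0.09, 0.04, 0.20 and 0.04 FPKM in vehicle libraries 1 to 4 and at 29.1, 22.2, 32.5 and 32.3 FPKM in cisplatin libraries 1 to 4. Serpina3n, an acute-phase inhibitor, was at 0.03, 0.03, 0.11 and 0.03 FPKM in vehicle libraries 1 to 4 and at 13.9, 39.1, 24.3 and 30.1 FPKM in cisplatin libraries 1 to 4. Both were near 0 in all vehicle libraries. Serpine2, protease nexin 1, rose from 4.69 ± 0.426 to 33.4 ± 1.48 FPKM. In contrast Serpinf2, the plasmin inhibitor antiplasmin, fell from 219 ± 12 to 46.6 ± 15.2 FPKM, and Wfdc15b, a WAP-domain inhibitor of the tubule, from 116 ± 6.27 to 19.5 ± 7.76 FPKM.

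Proteins that lie around cells without forming fibres also rose. Of 27 tested matricellular genes, 19 rose and 2 fell, 10 rises being at least 2-fold (median 0.79 (0.53 with median-of-ratios scaling)). Ccn1, an adhesive signalling protein and target of the co-activator YAP, was at 14.04, 20.8, 17.3 and 18.4 FPKM in vehicle libraries 1 to 4 and at 174, 222, 218 and 180.3 FPKM in cisplatin libraries 1 to 4. Its log2 fold change was 3.43 ± 0.12 (limma adjusted p = 1.99e-09). Mgp, which inhibits calcification, rose from 38.8 ± 8.33 to 186 ± 38 FPKM, and Ltbp4, which stores latent TGF-beta, fell from 9.88 ± 1.07 to 4.57 ± 1.22 FPKM. Of 16 tested ADAM and ADAMTS proteases, 10 (62.5%) rose and 1 fell, against 55% and 21.9% of all tested genes. At least 2-fold rises were found in 5, against 12%, and the median was 0.54 (0.34 with median-of-ratios scaling). Of the 16, 3 could enter the test only through cisplatin, among them Adam8. Adam8, a leukocyte and tumour sheddase, rose from 0.24 ± 0.0556 to 15.1 ± 1.99 FPKM. Adamts1, which cuts aggrecan and versican, rose from 5.22 ± 1.03 to 36.5 ± 4.61 FPKM. Macrophage markers summed to between 161.8 and 229.0 FPKM in vehicle and between 247.2 and 304.7 FPKM after cisplatin. Of 10 tested, 7 rose, with Cd68 going from 1.96 ± 0.355 to 64.1 ± 11.3 FPKM. Mertk and Cd74 fell and Csf1r did not pass. Neutrophil markers summed to between 3.57 and 10.2 and between 34.6 and 42.4 FPKM. Of 7 tested, 5 rose, Ly6g fell and Cxcr2 did not pass. The part of these cells in Adam8 was not tested.

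Galectins, tetraspanins and mucins showed 27 rises and 4 falls among 35 tested (median 0.64 (0.34 with median-of-ratios scaling)). Lgals1, a galectin that binds cell-surface glycans, went from 58.3 ± 2.86 to 342 ± 45.5 FPKM and Muc1, a mucin of the luminal membrane, from 5.99 ± 0.388 to 20.8 ± 1.58 FPKM. Genes of hyaluronan and proteoglycans rose in 52.3% and fell in 15.9% of 44 tested, close to all tested genes. Sulf2, which trims sulfate from heparan sulfate outside the cell, was at 5.61, 5.82, 5.96 and 5.62 FPKM in vehicle libraries 1 to 4 and at 46.3, 52.4, 44.5 and 49.4 FPKM in cisplatin libraries 1 to 4. Sdc1, the syndecan of epithelia, rose from 2.04 ± 0.169 to 16.1 ± 1.29 FPKM and Agrn, agrin of basement membranes, from 16.4 ± 0.738 to 50.2 ± 2.66 FPKM, whereas Sdc2 fell from 48.8 ± 3.21 to 15.6 ± 2.05 FPKM and Gpc4, a glypican, from 66.8 ± 4.16 to 32.7 ± 3.2 FPKM. In all, 23 of these genes rose and 7 fell, 8 and 5 at least 2-fold.

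Genes of cell shape moved mostly upward. Of 73 tested genes of actin branching, capping and membrane linkage, 54 rose, 20 at least 2-fold, and 9 fell (median 0.58 (0.30 with median-of-ratios scaling)). Actn1, which bundles actin filaments, was at 8.66, 9.21, 9.61 and 8.60 FPKM in vehicle libraries 1 to 4 and at 57.2, 67.2, 67.1 and 70.3 FPKM in cisplatin libraries 1 to 4. Arpc1b, a subunit of the Arp2/3 complex, was at 19.7, 19.8, 17.97 and 18.2 FPKM in vehicle libraries 1 to 4 and at 88.97, 108, 112 and 109 FPKM in cisplatin libraries 1 to 4. Neither pair of groups overlapped, and the log2 fold changes were 2.73 ± 0.07 and 2.40 ± 0.08 (limma adjusted p = 2.68e-10 and 1.15e-09). Flnc, filamin C of muscle, went from 0.035 ± 0.0238 to 6.83 ± 0.971 FPKM. Vill, a villin relative of brush-border cells, fell from 49.3 ± 3.41 to 22.96 ± 2.41 FPKM and Myh14, a non-muscle myosin, from 10.1 ± 0.859 to 5.54 ± 0.596 FPKM.

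Junction genes rose and fell in shares near those of all genes, but a larger share rose at least 2-fold. Of 44 tested, 27 (61.4%) rose and 12 (27.3%) fell. At least 2-fold rises were found in 16, against 12% of all tested genes, and the median was 0.65 (0.37 with median-of-ratios scaling). Of the 44, 6 could enter the test only through their cisplatin values and 3 only through vehicle. Lsr, which marks corners where 3 cells meet, went from 21.6 ± 0.928 to 70.8 ± 3.28 FPKM. Gjb2, connexin 26, fell from 66.7 ± 3.21 to 27.98 ± 2.68 FPKM and Pkp4, a plakophilin, from 93.7 ± 2.18 to 52.3 ± 5.01 FPKM. Genes of the Hippo pathway and targets of YAP, which responds to stretch and lost contact, showed 30 rises and 2 falls among 37 tested, 12 rises being at least 2-fold (median 0.60 (0.33 with median-of-ratios scaling)). Beside Ccn1, F3, tissue factor that starts clotting, rose from 12.6 ± 0.818 to 46.8 ± 2.4 FPKM. Fibroblast and pericyte markers summed to between 51.1 and 62.4 FPKM in vehicle and between 74.5 and 142.5 FPKM after cisplatin. Of 9 tested, 7 rose, Acta2 fell and Rgs5 did not pass. The part of these cells in the shape and matrix genes was not tested.

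Brakes on the MAP kinases rose in 19 of 25 tested genes and fell in 3 (median 0.68 (0.40 with median-of-ratios scaling)). Ier5, an immediate early gene, was at 1.42, 2.17, 2.24 and 1.99 FPKM in vehicle libraries 1 to 4 and at 26.9, 25.9, 26.5 and 27.1 FPKM in cisplatin libraries 1 to 4. Dusp5, a nuclear phosphatase of ERK, was at 0.79, 0.71, 1.69 and 0.93 FPKM in vehicle libraries 1 to 4 and at 21.3, 25.6, 21.6 and 24.6 FPKM in cisplatin libraries 1 to 4. Both groups of cisplatin values were tight, and the log2 fold changes were 3.23 ± 0.09 and 3.60 ± 0.13 (limma adjusted p = 4.18e-10 and 3.45e-09). Dusp8 rose from 0.69 ± 0.163 to 7.62 ± 0.864 FPKM and Dusp9 fell from 3.12 ± 0.434 to 0.80 ± 0.121 FPKM; Errfi1, a brake on the EGF receptor, stood at 257 ± 13.4 and 252 ± 37.2 FPKM and did not pass on the deposited scale, but with median-of-ratios scaling it fell, at -0.33.

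Guidance receptors and ligands rose in 22 of 40 (55.0%) and fell in 10 (25.0%), near the shares of all tested genes. However, 11 rose at least 2-fold, against 12% of all tested genes, and the median was 0.29 (0.11 with median-of-ratios scaling). Epha2, an ephrin receptor of epithelia, was at 1.02, 1.34, 1.34 and 0.80 FPKM in vehicle libraries 1 to 4 and at 22.01, 31.8, 28.5 and 28.1 FPKM in cisplatin libraries 1 to 4, a log2 fold change of 3.75 ± 0.12 (limma adjusted p = 1.15e-09). Plxna1, a semaphorin receptor, rose from 3.35 ± 0.346 to 13.1 ± 1.13 FPKM and Sema3c, a semaphorin, from 7.63 ± 0.287 to 19.6 ± 1.62 FPKM, while Sema4g fell from 23.4 ± 1.13 to 9.13 ± 1.81 FPKM. Among hormone and transmitter receptors and their ligands, 19 of 30 rose and 4 fell, 6 of the 30 having entered through cisplatin values alone. F2rl1, the protease-activated receptor PAR2, was at 7.20, 5.92, 6.06 and 5.77 FPKM in vehicle libraries 1 to 4 and at 42.4, 47.7, 45.9 and 42.97 FPKM in cisplatin libraries 1 to 4. Casr, the calcium-sensing receptor of the thick ascending limb, fell from 9.04 ± 0.579 to 2.04 ± 0.49 FPKM, and Pth1r, the parathyroid hormone receptor, was at 406, 388, 368 and 356 FPKM in vehicle libraries 1 to 4 and at 158, 118, 125 and 138 FPKM in cisplatin libraries 1 to 4. The 2 groups of Pth1r values did not overlap.

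Developmental pathways lay nearer to the background. Of 43 tested Wnt genes 20 rose and 10 fell; their median was 0.21, or -0.03 under median-of-ratios scaling. The ligand genes Wnt9a (0.38 ± 0.108 to 2.65 ± 0.177 FPKM), Wnt10a (0.28 ± 0.0806 to 3.31 ± 0.897 FPKM) and Wnt5a (1.11 ± 0.179 to 3.15 ± 0.248 FPKM) rose from low levels, and Sfrp1, a secreted Wnt antagonist, was at 40.8, 33.03, 29.5 and 30.3 FPKM in vehicle libraries 1 to 4 and at 7.49, 4.83, 4.50 and 4.17 FPKM in cisplatin libraries 1 to 4. Sfrp1 fell by 2.48 ± 0.15 on the log2 scale (limma adjusted p = 1.38e-07). Notch genes rose in 12 of 24 and fell in 6, and the median of 0.16 turned to -0.07 under that scaling. The receptor Notch3 (1.30 ± 0.132 to 3.79 ± 0.572 FPKM) and the ligand Jag1 (2.52 ± 0.105 to 4.55 ± 0.325 FPKM) rose, and Hes6 fell from 43.6 ± 2.51 to 21.1 ± 2.52 FPKM. Of 13 tested FGF genes 5 rose and 4 fell, Fgfr4 falling from 20.8 ± 0.937 to 9.14 ± 0.922 FPKM and Fgf18 rising from 2.02 ± 1.32 to 5.14 ± 0.44 FPKM.

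Genes of RNA and protein synthesis rose widely but mostly by less than 2-fold. Under median-of-ratios scaling rises and falls were 36 and 6 for nuclear transport, 30 and 7 for translation factors, 11 and 3 for tRNA synthetases, 6 and 5 for the CCT chaperonin, 24 and 10 for decay and 27 and 23 for chromatin genes. On the deposited scale 49 of 58 tested nuclear pore and transport genes rose and 0 fell (median 0.53 (0.27 with median-of-ratios scaling)). Ran, the GTPase that sets the direction of nuclear transport, was at 36.97, 36.1, 37.8 and 35.7 FPKM in vehicle libraries 1 to 4 and at 69.2, 67.1, 77.4 and 72.6 FPKM in cisplatin libraries 1 to 4. Aaas, a pore protein, rose from 9.24 ± 1.51 to 40.4 ± 4.24 FPKM. Translation factors showed 47 rises and 4 falls among 56 (median 0.45 (0.17 with median-of-ratios scaling)), of which 4 rises reached 2-fold. Eif4ebp1, which restrains cap-dependent translation, was at 13.4, 13.6, 14.3 and 12.99 FPKM in vehicle libraries 1 to 4 and at 67.98, 79.5, 89.6 and 85.4 FPKM in cisplatin libraries 1 to 4. Eif6, which keeps ribosomal subunits apart, was at 39.9, 36.8, 32.3 and 36.97 FPKM in vehicle libraries 1 to 4 and at 139.6, 154, 171 and 172 FPKM in cisplatin libraries 1 to 4. They rose by 2.48 ± 0.08 and 2.09 ± 0.08 on the log2 scale (limma adjusted p = 1.39e-09 and 6.08e-09), whereas Eef2, the elongation factor, stood at 566 ± 6.26 and 548 ± 38.3 FPKM and did not pass, though under median-of-ratios scaling it fell, at -0.34.

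Splicing factors rose in 60 of 74 and fell in 4, but only 3 rose 2-fold, and median-of-ratios scaling left 34 rises and 14 falls with a median of 0.13. Ptbp3, a repressor of exons, rose from 10.4 ± 0.702 to 27.3 ± 2.75 FPKM and Snrpg, a core protein of the spliceosome, from 39.1 ± 1.75 to 89.2 ± 8.43 FPKM. Of 23 tested tRNA synthetases 21 rose, Vars from 9.76 ± 0.422 to 22.6 ± 0.877 FPKM. Ubiquitin and E2 enzyme genes rose in 45 of 60 and fell in 1; median-of-ratios scaling gave 23 rises and 15 falls. Isg15, a ubiquitin-like protein induced by interferon, went from 1.96 ± 0.112 to 16.6 ± 4.21 FPKM. The CCT chaperonin and prefoldin genes, which fold actin and tubulin, rose in 15 of 19 with no 2-fold change.

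Messenger RNA decay genes rose in 39 of 53. Btg1, which brings deadenylase to transcripts and slows division, was at 11.9, 9.27, 10.2 and 9.96 FPKM in vehicle libraries 1 to 4 and at 41.2, 43.4, 42.7 and 38.4 FPKM in cisplatin libraries 1 to 4. Zfp36l1, which binds AU-rich elements, was at 44.7, 52.00, 47.9 and 45.8 FPKM in vehicle libraries 1 to 4 and at 160.5, 178, 194 and 163 FPKM in cisplatin libraries 1 to 4. Chromatin regulators rose in 57 of 88 and fell in 6 (median 0.28, near that of all genes). Brd2, a reader of acetylated histones, rose from 36.5 ± 1.35 to 78.3 ± 4.95 FPKM and Hdac7 from 7.04 ± 0.46 to 18.5 ± 0.924 FPKM, while Smarca2, the BRM remodeller, was at 109, 109, 135 and 126 FPKM in vehicle libraries 1 to 4 and at 38.6, 35.2, 37.6 and 35.4 FPKM in cisplatin libraries 1 to 4. Smarca2 fell by 1.67 ± 0.08 (limma adjusted p = 1.7e-08). Of 17 tested histone genes 11 rose, among them the replacement histone H3f3b, from 84.6 ± 5.72 to 198 ± 12.7 FPKM, and H2ax, the histone phosphorylated at DNA breaks, from 8.29 ± 1.11 to 18.7 ± 1.85 FPKM.

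Genes of the secretory pathway were mixed. Of 33 tested chaperones and folding enzymes of the endoplasmic reticulum 7 rose and 12 fell, none by 2-fold, and the median was -0.09 (-0.38 with median-of-ratios scaling). Hsp90b1, the GRP94 chaperone, was at 203, 199, 234 and 176 FPKM in vehicle libraries 1 to 4 and at 158, 143, 146 and 140.4 FPKM in cisplatin libraries 1 to 4. Calr, calreticulin, was at 531, 528, 536 and 442 FPKM in vehicle libraries 1 to 4 and at 503, 442, 467 and 494 FPKM in cisplatin libraries 1 to 4. Hsp90b1 fell by 0.46 ± 0.08 on the log2 scale (limma adjusted p = 0.000426) and Calr, whose groups overlapped, did not pass on the deposited scale; under median-of-ratios scaling it passed as a fall, at -0.38. Sil1, an exchange factor of the same compartment, fell from 38.6 ± 1.15 to 25.2 ± 2.47 FPKM, while Dnajc10, a disulfide reductase, rose from 10.2 ± 0.595 to 17.2 ± 0.933 FPKM. Translocation and degradation genes rose in 23 of 41 and fell in 9, with Herpud1, induced by the unfolded protein response, falling from 246 ± 17.8 to 135 ± 11.9 FPKM and Spcs3 of the signal peptidase rising from 15.9 ± 0.905 to 56.6 ± 2.86 FPKM. Glycosylation genes rose in 26 of 54 and fell in 11; Mgat3, which adds the bisecting sugar, fell from 43.5 ± 1.71 to 7.53 ± 2.79 FPKM. The medians of these last groups and of vesicle coat genes were 0.18, 0.13 and 0.12, and turned to -0.10, -0.12 and -0.16 with median-of-ratios scaling.

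Several steps of the pathway from tryptophan to NAD fell. NAD, the electron carrier that poly(ADP-ribose) polymerases also consume, is made in the kidney from tryptophan and from recycled nicotinamide. Among 35 tested genes of NAD synthesis and use 15 rose and 14 fell. Afmid, the second step from tryptophan, was at 86.4, 85.6, 88.5 and 84.6 FPKM in vehicle libraries 1 to 4 and at 35.04, 25.00, 23.8 and 26.2 FPKM in cisplatin libraries 1 to 4. Kmo, the hydroxylase that follows, was at 62.6, 64.4, 57.6 and 66.3 FPKM in vehicle libraries 1 to 4 and at 27.4, 20.6, 20.2 and 20.2 FPKM in cisplatin libraries 1 to 4. Haao, which makes the precursor of quinolinate, was at 169.5, 179.6, 174 and 179 FPKM in vehicle libraries 1 to 4 and at 76.2, 58.5, 78.5 and 71.4 FPKM in cisplatin libraries 1 to 4. In all 3 each cisplatin library was below each vehicle library, and the log2 fold changes were -1.63 ± 0.10, -1.47 ± 0.09 and -1.30 ± 0.09 (limma adjusted p = 1.55e-07, 1.95e-07 and 2.19e-07). Qprt, the entry into NAD, fell from 42.6 ± 1.89 to 21.2 ± 3.98 FPKM, Nadsyn1, the final synthetase, from 15.5 ± 1.54 to 8.52 ± 0.51 FPKM, and Naprt, for nicotinic acid, from 23.4 ± 1.21 to 17.1 ± 1.19 FPKM.

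Branches out of the pathway fell as well. Acmsd, which diverts the intermediate away from NAD, was at 53.03, 57.6, 49.5 and 45.04 FPKM in vehicle libraries 1 to 4 and at 12.5, 4.28, 4.48 and 5.00 FPKM in cisplatin libraries 1 to 4, and Aadat, which makes kynurenic acid, fell from 153 ± 4.42 to 32.7 ± 10.0 FPKM. Kynu, kynureninase, stood at 4.16 ± 1.02 and 3.54 ± 1.75 FPKM and did not pass, but it fell, at -0.47, without cisplatin library 1 and, at -1.21, with edgeR on 6 libraries. Nampt, the rate-limiting enzyme of recycling, was at 39.9, 38.5, 36.6 and 41.5 FPKM in vehicle libraries 1 to 4 and at 38.2, 40.1, 39.7 and 39.2 FPKM in cisplatin libraries 1 to 4. Its groups overlapped and it did not pass on the deposited scale, at 0.01 ± 0.05; with median-of-ratios scaling it passed as a fall, at -0.28. Among enzymes that use NAD, Parp3 rose from 10.5 ± 0.274 to 25.1 ± 1.55 FPKM, Parp14 from 1.36 ± 0.205 to 7.01 ± 0.994 FPKM and the surface enzyme Bst1 from 0.47 ± 0.0592 to 9.78 ± 2.2 FPKM. Parp1, the main polymerase of DNA breaks, fell from 12.4 ± 0.288 to 10.01 ± 0.94 FPKM. Nnt, which makes mitochondrial NADPH, was at 45.7, 40.2, 41.2 and 41.5 FPKM in vehicle libraries 1 to 4 and at 18.6, 12.4, 12.4 and 13.8 FPKM in cisplatin libraries 1 to 4.

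Folate and methionine genes had the lowest median of the 42 lists: 23 of 39 fell and 6 rose, 8 and 4 at least 2-fold (median -0.42 (-0.71 with median-of-ratios scaling)). Folr1, the folate receptor of the proximal tubule, was at 324, 338, 322 and 331 FPKM in vehicle libraries 1 to 4 and at 161, 134, 143 and 153 FPKM in cisplatin libraries 1 to 4. Shmt2, the mitochondrial serine hydroxymethyltransferase, was at 158, 167, 154 and 163 FPKM in vehicle libraries 1 to 4 and at 72.1, 60.8, 69.3 and 61.8 FPKM in cisplatin libraries 1 to 4. The groups did not overlap, and the log2 fold changes were -1.15 ± 0.06 and -1.27 ± 0.07 (limma adjusted p = 7.15e-08 and 3.97e-08). Mthfd1 fell from 86.5 ± 5.29 to 42.1 ± 4.57 FPKM and Cbs, which starts cysteine synthesis, from 78.1 ± 5.95 to 35.8 ± 6.7 FPKM. The sarcosine branch fell with Sardh (152 ± 4.92 to 53.3 ± 8.22 FPKM) and Dmgdh (47.2 ± 3.4 to 19.2 ± 3.56 FPKM). Against this direction Mthfd2, the mitochondrial folate enzyme of proliferating cells, rose from 1.25 ± 0.39 to 4.28 ± 0.343 FPKM, Mthfd1l from 0.65 ± 0.0645 to 2.37 ± 0.338 FPKM, and Gldc of the glycine cleavage system from 52.2 ± 6.7 to 124 ± 22.9 FPKM. Mtr, methionine synthase, stood at 2.89 ± 0.112 and 3.24 ± 0.412 FPKM and did not pass.

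**Figure D5:**
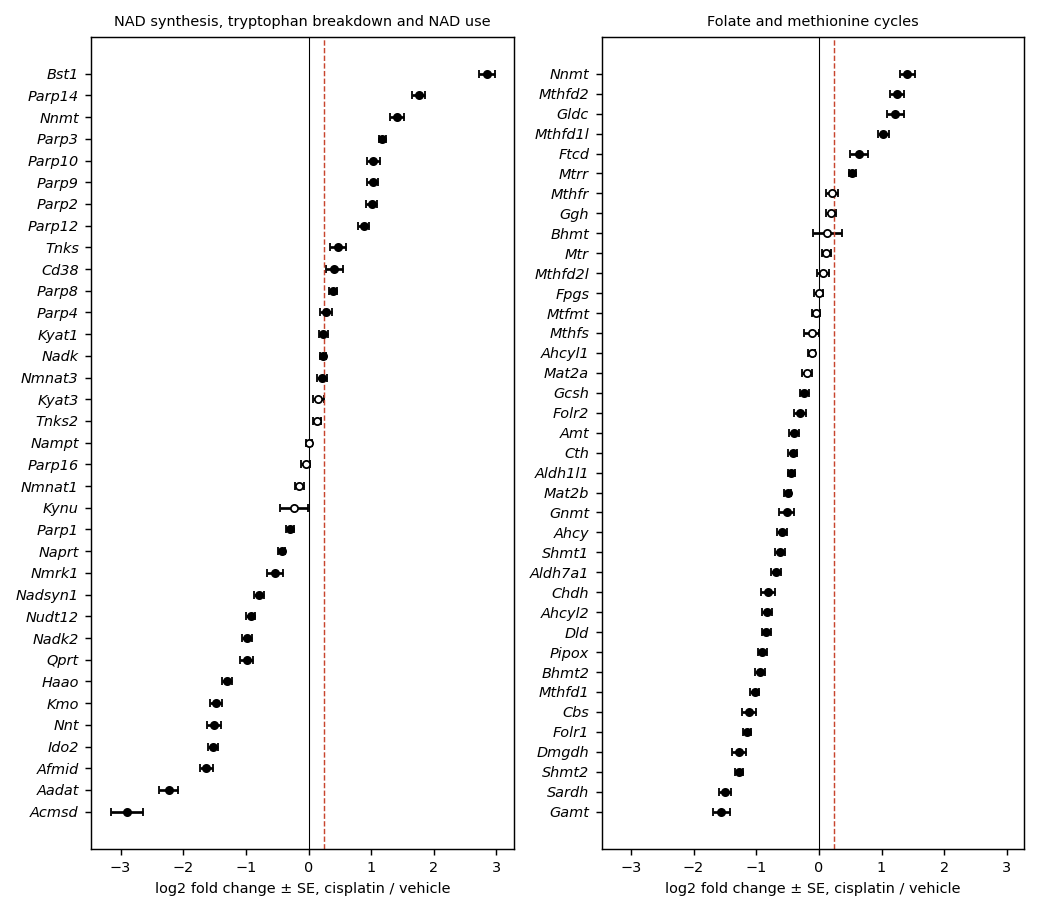
Log2 fold change ± SE on the x axis for tested genes of NAD metabolism (left) and of the folate and methionine cycles (right); filled points passed and open points did not. The dashed line is the median of all genes at 0.25; Acmsd lies lowest on the left and Gamt on the right.

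Genes of nucleotide metabolism moved about as often as all tested genes, but a larger share rose at least 2-fold. Of 72 tested 38 (52.8%) rose and 17 (23.6%) fell. At least 2-fold, 18 rose and 5 fell, against 12% and 4.95% of all tested genes. Their median was 0.17, or -0.10 under median-of-ratios scaling. Ctps, which makes CTP, was at 7.39, 7.94, 8.22 and 7.24 FPKM in vehicle libraries 1 to 4 and at 36.01, 38.4, 36.9 and 37.5 FPKM in cisplatin libraries 1 to 4. Hprt, which salvages purines, rose from 48.1 ± 1.91 to 105 ± 4.98 FPKM and Ampd3, an AMP deaminase, from 6.00 ± 0.351 to 30.4 ± 4.5 FPKM. Dpys, dihydropyrimidinase, which breaks down pyrimidines, was at 13.7, 12.5, 13.3 and 16.8 FPKM in vehicle libraries 1 to 4 and at 0.69, 0.44, 0.59 and 0.66 FPKM in cisplatin libraries 1 to 4, and Dpyd, the step before it, fell as given among the long genes. Ak4, a mitochondrial adenylate kinase, fell from 165 ± 10.5 to 23.98 ± 5.88 FPKM.

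The polyamine genes changed at both ends of the pathway. Odc1, ornithine decarboxylase, which starts synthesis, was at 856, 709, 741 and 492 FPKM in vehicle libraries 1 to 4 and at 248, 203, 207 and 221 FPKM in cisplatin libraries 1 to 4. Smox, spermine oxidase, was at 2.64, 3.20, 3.13 and 3.17 FPKM in vehicle libraries 1 to 4 and at 18.2, 25.7, 26.2 and 23.8 FPKM in cisplatin libraries 1 to 4. Sat1, which acetylates polyamines for export, was at 111, 127, 118 and 132 FPKM in vehicle libraries 1 to 4 and at 255, 288, 311 and 306 FPKM in cisplatin libraries 1 to 4. Odc1 fell by 1.64 ± 0.15 while Smox and Sat1 rose by 2.59 ± 0.11 and 1.24 ± 0.08 (limma adjusted p = 2.33e-06, 8.23e-09 and 1.59e-07). Of 19 tested genes 12 rose and 6 fell, Sms, spermine synthase, falling from 14.5 ± 0.687 to 8.24 ± 0.627 FPKM and Srm, spermidine synthase, rising from 18.4 ± 1.17 to 32.5 ± 1.63 FPKM.

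Dehydrogenases of aldehydes, alcohols and steroids fell in 34 of 65 and rose in 20 (median -0.32 (-0.54 with median-of-ratios scaling)). Hsd17b11, a steroid and lipid droplet dehydrogenase, went from 249.5 ± 23.6 to 76.3 ± 2.7 FPKM and Adhfe1, a hydroxyacid transhydrogenase, from 210.5 ± 13.2 to 69.7 ± 7.64 FPKM. Cbr3, a carbonyl reductase, rose from 0.77 ± 0.0592 to 13.8 ± 1.86 FPKM and Rdh11, a retinol dehydrogenase, from 4.41 ± 0.134 to 18.10 ± 0.851 FPKM. Selenoprotein genes fell in 15 of 31 and rose in 11. Txnrd1, thioredoxin reductase and a target of NRF2, was at 41.9, 42.02, 41.7 and 42.4 FPKM in vehicle libraries 1 to 4 and at 153, 158, 163 and 158 FPKM in cisplatin libraries 1 to 4. Selenop, which carries selenium in plasma, was at 1549, 1473, 1713 and 1385 FPKM in vehicle libraries 1 to 4 and at 472, 419.6, 379.6 and 438 FPKM in cisplatin libraries 1 to 4. The 2 moved apart, by 1.89 ± 0.04 and -1.84 ± 0.09 (limma adjusted p = 1.62e-10 and 2.88e-08).

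Lipid genes rose and fell in shares near those of all tested genes. Plin2, the coat of lipid droplets, was at 56.8, 51.2, 51.2 and 54.6 FPKM in vehicle libraries 1 to 4 and at 452, 537, 628 and 551 FPKM in cisplatin libraries 1 to 4, a log2 fold change of 3.31 ± 0.09 (limma adjusted p = 4.3e-10). Of 73 tested genes of phospholipid handling 42 (57.5%) rose and 16 (21.9%) fell, and Pcyt2, which makes phosphatidylethanolamine, fell from 103 ± 4.8 to 35.9 ± 2.2 FPKM. Of 47 sphingolipid genes 28 (59.6%) rose and 11 (23.4%) fell. Sphk1, which makes sphingosine 1-phosphate, was at 1.32, 1.81, 1.88 and 1.54 FPKM in vehicle libraries 1 to 4 and at 19.3, 32.6, 32.8 and 34.2 FPKM in cisplatin libraries 1 to 4. Smpdl3b, a membrane phosphodiesterase, rose from 0.23 ± 0.0648 to 21.2 ± 2.87 FPKM while its relative Smpdl3a fell from 319 ± 12 to 104 ± 14.7 FPKM, and Degs2, which makes phytoceramide, fell from 78.4 ± 8.86 to 16.8 ± 0.678 FPKM.

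Nuclear receptors and their co-activators fell in 22 of 43 and rose in 9, mostly by less than 2-fold (median -0.20 (-0.49 with median-of-ratios scaling)). Esrra, a receptor that drives mitochondrial genes, was at 57.5, 58.6, 57.2 and 59.5 FPKM in vehicle libraries 1 to 4 and at 38.1, 34.5, 36.4 and 38.8 FPKM in cisplatin libraries 1 to 4. Nr1d2, a clock repressor, fell from 28.1 ± 1.17 to 12.3 ± 0.913 FPKM and Thrb, a thyroid hormone receptor, from 6.86 ± 0.553 to 3.44 ± 0.308 FPKM, whereas Pprc1, a relative of PGC-1, rose from 3.18 ± 0.147 to 7.88 ± 0.732 FPKM. Homeobox genes, which mark position along the body, rose in 19 of 43 and fell in 9. Hoxb9 was at 6.58, 6.51, 6.37 and 6.76 FPKM in vehicle libraries 1 to 4 and at 22.9, 29.2, 29.98 and 28.5 FPKM in cisplatin libraries 1 to 4. Tgif1, a homeobox repressor of TGF-beta signalling, rose from 8.33 ± 0.936 to 48.02 ± 2.26 FPKM, and Hoxa10 stood at 26.5 ± 1.33 and 24.3 ± 1.24 FPKM and did not pass. Hoxa10 did pass as a fall with median-of-ratios scaling, at -0.40, and, at -0.15, without vehicle library 3 or without cisplatin library 3. The homeobox median of 0.17 turned to -0.04 with median-of-ratios scaling.

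Hypoxia-inducible genes had about the median of all genes, with 20 rises and 6 falls among 38 and a median of 0.25 (0.01 with median-of-ratios scaling). Adm, adrenomedullin, was at 4.76, 4.08, 7.21 and 3.78 FPKM in vehicle libraries 1 to 4 and at 27.3, 28.97, 28.5 and 28.5 FPKM in cisplatin libraries 1 to 4, and Plod2, a collagen lysyl hydroxylase, rose from 8.01 ± 0.556 to 24.6 ± 0.329 FPKM. Vegfa, the endothelial growth factor, was at 113, 111, 109 and 122 FPKM in vehicle libraries 1 to 4 and at 49.7, 43.98, 47.95 and 40.7 FPKM in cisplatin libraries 1 to 4. Vegfa fell by 1.30 ± 0.07 (limma adjusted p = 5.36e-08) although it belongs to the same list. Imprinted genes rose in 16 of 32 and fell in 7; Blcap rose from 13.7 ± 1.04 to 53.9 ± 6.21 FPKM and Ndn, necdin, from 0.89 ± 0.155 to 4.43 ± 0.498 FPKM, and Trappc9, also a long gene, fell from 26.6 ± 0.908 to 10.3 ± 0.679 FPKM. Among phosphodiesterases and related genes 18 of 41 rose and 8 fell; Pde3b rose from 2.69 ± 0.157 to 7.17 ± 1.1 FPKM and Pde4c fell from 34.8 ± 2.62 to 13.7 ± 2.83 FPKM. Of 51 listed noncoding and host RNAs, Snhg11 alone was tested, at 22.1 ± 1.83 and 22.6 ± 3.47 FPKM, and it did not pass on the deposited scale but fell, at -0.26, under median-of-ratios scaling.

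Single kidneys of the cisplatin group differed most in a few genes. Slc14a2, a urea carrier of the inner medulla, was at 0, 0, 0 and 0.38 FPKM in vehicle and 0.60, 0.14, 25.9 and 2.28 FPKM in cisplatin libraries 1 to 4. Only cisplatin library 3 was high. Hsd3b4, a steroid dehydrogenase with close relatives, was at 85.1, 10.5, 67.7 and 99.00 FPKM in vehicle and 27.3, 0.35, 0.99 and 2.63 FPKM after cisplatin, so that the groups overlapped. Its log2 fold change was -3.65 ± 0.93, and -4.36 without vehicle library 2 or -4.58 without cisplatin library 1. H3c15, a replicative histone, was at 7.24, 7.14, 15.9 and 6.16 FPKM in vehicle and 4.48, 4.00, 4.48 and 0.13 FPKM after cisplatin; it passed with all libraries (log2 fold change -1.40 ± 0.48) but not without vehicle library 3, at -1.12. Gm41885, a predicted gene, was at 1.53, 5.41, 4.50 and 3.15 FPKM and 7.57, 13.9, 38.2 and 28.1 FPKM. Rbmy and its copies Gm21677 and Gm21708 were also among the 10 most variable genes, with Sprr2f and the predicted Gm2274 and Gm2260.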

How the data were processed

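Whole-kidney RNA of 12 mice was sequenced, and the 8 libraries labelled Vehicle and Cisplatin were compared. The deposited FPKM values of 19036 genes were made by the authors; the submitters' processing notes name HISAT2 2.0.4, Bowtie2 2.2.5 and RSEM 1.2.12, and the sources used here give no genome build or annotation. Estimated counts deposited beside them were not whole in 32.9 to 35.0% of values (tolerance 0.001); they were rounded and used only for an alternative in the 6 libraries whose columns could be assigned by name. A further 18 per-sample columns were not used.

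Genes with at least 1 FPKM in at least 4 of the 8 libraries were tested with limma 3.58.1 (R 4.3.3) on log2(FPKM + 1), with a mean trend, two-sided, and Benjamini-Hochberg adjustment over all 12165 genes; a call needed an adjusted p under 0.05. The labels describe biological replicates, and no 2 of the 8 columns were identical. Intervals for sampling of reads were not computed, since FPKM carry no counts.

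The genes and gene lists were chosen with earlier results of these data known. Named genes were, outside the injury, p53 and transport classes, the 15 largest rises and falls, the 10 most variable and most abundant genes, the 5 steadiest abundant genes, genes that appeared or disappeared, and for each list its leading passing members in each direction with its most abundant member that did not pass. Members of the NAD, folate, polyamine, epidermal, Y-linked and long-gene groups beyond that rule, and Fosl2 and Junb, were named after their values were seen. Alternatives were another pseudocount, filter or scaling, the replicate number as a block, all 12 libraries, array weights, each library left out, edgeR 4.0.16 and DESeq2 1.42.0. The procedure was tested on simulated data. Some genes and 1 gene list that these rules named are not reported here.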

Additional observations from a re-analysis of the deposited data

Results flagged for a closer look

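In 41 of 443 groups of 4 libraries, over 227 genes named above, one library lay far from the other 3 by Dixon's test. Chance flags about 1 in 20 groups, and the genes share libraries. Cisplatin library 1 was the distant one in 20 of them. It was high among cisplatin libraries for genes that fell. Library 1 had Acmsd at 12.5 FPKM (the other 3 from 4.28 to 5.00), Acsm2 at 140.3 FPKM (the other 3 from 52.9 to 67.8), Casr at 2.77 FPKM (the other 3 from 1.75 to 1.84) and Cyp2d12 at 9.19 FPKM (the other 3 from 1.69 to 2.15). It also had Gatm at 55.7 FPKM (the other 3 from 23.1 to 25.99), Hsd17b11 at 80.4 FPKM (the other 3 from 74.8 to 75.1), Hsd3b4 at 27.3 FPKM (the other 3 from 0.35 to 2.63) and Kmo at 27.4 FPKM (the other 3 from 20.2 to 20.6). Further high values in it were Macrod2 at 12.4 FPKM (the other 3 from 6.97 to 7.73), Mgat3 at 11.7 FPKM (the other 3 from 5.57 to 6.60), Miox at 322 FPKM (the other 3 from 97.3 to 125) and Pvalb at 1.32 FPKM (the other 3 from 0.18 to 0.36). The rest were Sdc2 at 18.7 FPKM (the other 3 from 14.2 to 14.9) and Ugt2b38 at 110.4 FPKM (the other 3 from 49.6 to 57.5). The same library was low for genes that rose. It had Blcap at 44.7 FPKM (the other 3 from 55.7 to 57.7), Gprc5a at 41.8 FPKM (the other 3 from 53.9 to 56.3), Lce3c at 5.47 FPKM (the other 3 from 8.82 to 9.19) and Lsr at 65.8 FPKM (the other 3 from 72.1 to 72.7). Other low values in it were Slpi at 12.4 FPKM (the other 3 from 22.2 to 23.6) and Sphk1 at 19.3 FPKM (the other 3 from 32.6 to 34.2).

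Single values stood apart in other cisplatin libraries. Library 4 had Erich6b at 0.07 FPKM (the other 3 all at 0). Library 3 had Foxa1 at 0.40 FPKM (the other 3 from 0.56 to 0.57). Library 4 had H3c15 at 0.13 FPKM (the other 3 from 4.00 to 4.48). Library 3 had Slc14a2 at 25.9 FPKM (the other 3 from 0.14 to 2.28). Library 2 had Sycp3 at 6.51 FPKM (the other 3 from 7.30 to 7.36).

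Among vehicle libraries the distant values were small or near 0 for most genes. Vehicle library 1 had Aadat at 147 FPKM (the other 3 from 155 to 156), Slpi at 0 FPKM (the other 3 from 0.07 to 0.08), Smox at 2.64 FPKM (the other 3 from 3.13 to 3.20) and Wfdc15b at 106 FPKM (the other 3 from 117 to 119.5). Vehicle library 3 had Dbp at 105 FPKM (the other 3 from 116 to 118), Gm10256 at 0 FPKM (the other 3 all at 0.01), Gm10352 at 0 FPKM (the other 3 all at 0.01) and Gm21704 at 0.05 FPKM (the other 3 all at 0.01). It also had H3c15 at 15.9 FPKM (the other 3 from 6.16 to 7.24), Rbmy at 0 FPKM (the other 3 all at 0.01), Serpina3n at 0.11 FPKM (the other 3 all at 0.03) and Vars at 9.13 FPKM (the other 3 from 9.91 to 10.01). It also had Wwox at 6.13 FPKM (the other 3 from 7.35 to 7.53). Vehicle library 4 had Calr at 442 FPKM (the other 3 from 528 to 536), Crct1 at 0.09 FPKM (the other 3 all at 0) and Slc14a2 at 0.38 FPKM (the other 3 all at 0).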

How the results depend on the processing

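The number of genes that passed was 9354 of 12165 tested, and 8963 to 9331 with one library left out. With edgeR and DESeq2 on the counts of 6 libraries it was 9720 and 8849, of 14428 genes tested there. These 2 methods used another filter and no added 1 FPKM, so their counts here and below are not on the same measure. Genes raised at least 2-fold numbered 1465 (1416 to 1555 with one library left out) and genes lowered at least 2-fold 602 (580 to 650). The raised count was 1019 with median-of-ratios scaling, 1001 with quantile normalization, 1764 with rescaling to TPM and 1884 with a pseudocount of 0.1. It was 1908 with edgeR and 1806 with DESeq2 on the counts of 6 libraries. The lowered count moved to 928 with median-of-ratios scaling, to 1517 with edgeR and to 1502 with DESeq2; the cause was not tested. Upward calls made up 71.6% of passing genes, but 49.5% with median-of-ratios scaling, 47.8% with quantile normalization, 51.3% with edgeR and 49.7% with DESeq2. List medians above the all-gene median numbered 25 (23 to 25 with one library left out). Genes that appeared numbered 69 (70 to 79 with one library left out). The rule then asks for fewer libraries, so that count cannot fall and its range is no measure of stability.

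Same-numbered libraries showed no clear shared deviation, with correlations of 0.082, 0.067, -0.078 and -0.078. Pairs of unlike number ran from -0.195 to 0.136. With 4 libraries per group this check cannot exclude that the numbers pair the mice. With the replicate block 9175 genes passed. Each group holds every replicate number, so the block cannot alter any fold change. The 25 list medians above that of all genes were therefore fixed in advance. The 1465 raised and 602 lowered genes could change only through their calls.

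Genes near no change turned sign. With median-of-ratios scaling, edgeR and DESeq2 in that order, Car2 was at -0.29, -0.22 and -0.23, Hsd17b4 at -0.29, -0.26 and -0.27, Nampt at -0.28, -0.25 and -0.26, and Ddx3y at -0.15, -0.22 and -0.23. Rsrp1 was at -0.29 with median-of-ratios scaling and -0.24 with DESeq2, and Snhg11 at -0.26 with the former. A further 9 genes that had not passed did so as falls with median-of-ratios scaling: Calr (-0.38), Eef2 (-0.34), Entpd5 (-0.29), Errfi1 (-0.33), Ftl1 (-0.46), Gpx3 (-0.60), Hoxa10 (-0.40), Ndufa13 (-0.30) and Sycp3 (-0.35). With quantile normalization Ddx3y was at -0.20, Gpx3 at 1.11 and Mtr at -0.25, and Mtr was at -0.35 with edgeR and -0.36 with DESeq2. Of 223 tested genes named, 1 lost its call with a library left out, 4 gained one (Gm2274, Hoxa10, Kynu and Sycp3) and 0 turned sign. Genes that appeared were recounted only under median-of-ratios scaling (65), TPM (69) and with libraries left out. Depth limits statements on genes near 0 FPKM, where 2 decimals are deposited.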
